A study of Ovis aries with 32 samples.

Results

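DDR1, SIK2, LRRC1, HNRNPUL2, E4F1 and NFIC are 6 genes that were selected on these arrays, because the effect of the α1-adrenergic agonist phenylephrine (PHE) on their signal differed between the premature and the near-term sheep fetus. They were 6 of the 14346 genes and unnamed probes read on the array, and 8 of its 15008 probes carried their names: LRRC1 and HNRNPUL2 had 2 probes each and the other genes 1 each. These names came from matching the group means that the study lists for altered genes to the probes, age by age. The fetal values chose the genes, so those values are given as a description and without a test. Tests compared newborn and adult arrays, whose values the rule did not use. The spread of each probe in these tests came from all 32 arrays, the fetal ones included, so the tests were not independent of the choice. With the newborn arrays alone 3 of the 6 genes were altered, and with the adult arrays alone 0. The choice was not blind to those ages, however: the match of altered genes also named SIK2, E4F1 and DDR1 by their newborn means and DDR1 by its adult means, and earlier results of these arrays were known.

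The study asked how the transcriptional response of the middle cerebral artery (MCA) to α1-adrenergic stimulation changes with maturation. Arterial segments of 4 age groups were untreated, or exposed in an organ bath to 10 µM PHE over 30 min, and their RNA was read on 1-colour Agilent sheep arrays. How long untreated segments stayed in the bath is not stated, so bath time may be part of any PHE difference. Each of the 8 groups had 4 arrays, 32 in all, and 4 animals were used per experiment. The labels do not say which animal an array came from, so the errors given here are between arrays. Standard errors (SE) of fetal differences come from the spread within the groups compared. Those of newborn and adult differences are limma ones, from the spread within all 8 groups, so the kinds of SE are not alike. By the sample labels gestation had reached 96 days in the premature group and 146 days in the near-term group, lambs were 12 hours old and adults 2 years. By the series description near term was 140 days, lambs were 5 days old and adults, not pregnant, 18 to 24 months, and the files do not settle which holds.

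PHE contracts arteries through α1-adrenergic receptors, which couple to Gq proteins, release calcium from stores and activate protein kinase C. The genes described here stand at several levels of the cell: a collagen receptor (DDR1), a protein kinase that restrains CREB-dependent transcription (SIK2), a scaffold protein of the cell border (LRRC1), a nuclear RNA-binding protein (HNRNPUL2) and the transcription factors E4F1 and NFIC. In the artery wall, collagen receptors and CREB-dependent transcription are known for their part in smooth muscle growth and phenotype.

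Values are log2 signal relative to the 75th percentile of the same array, so 0 is the level of that percentile and a difference of 1 is a doubling of signal. A level of one probe cannot be set against that of another. The near-term arrays were the least uniform in brightness. Near-term untreated replicate 4 had a background-subtracted 75th percentile intensity of 124.3, which was 1.08 times its background. On that array 71.21% of probes were well above background. Near-term PHE replicate 1 had an intensity of 369.2, whereas the other near-term PHE arrays lay between 1342.5 and 1669.7. Among these, PHE replicate 4 stood apart with 95.55% of probes well above background, against 71.62% in PHE replicate 2 and 72.69% in PHE replicate 3. Near-term untreated replicate 3, with 391.0, stood at 2.77 times its background and had the most outlier spots (53). Near-term values are given with all arrays, without near-term PHE replicate 1, and without that array and untreated replicate 4. All near-term PHE arrays and untreated replicate 4 were on slide 1, untreated replicate 1 was on slide 2, and untreated replicates 2 and 3 were on slide 3. Without untreated replicate 4, PHE and slide therefore cannot be told apart near term, and with slide as a block PHE is set against that dim array alone. The arrays of the premature fetus and the newborn lamb were read on 1 scan day (scan 2) and those of the near-term fetus and the adult on another (scan 1), so a difference in level between an age of one scan and an age of the other cannot be told apart from a difference between scans. This limits each order of the 8 groups given here, and the newborn against the adult.

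**Figure D1:**
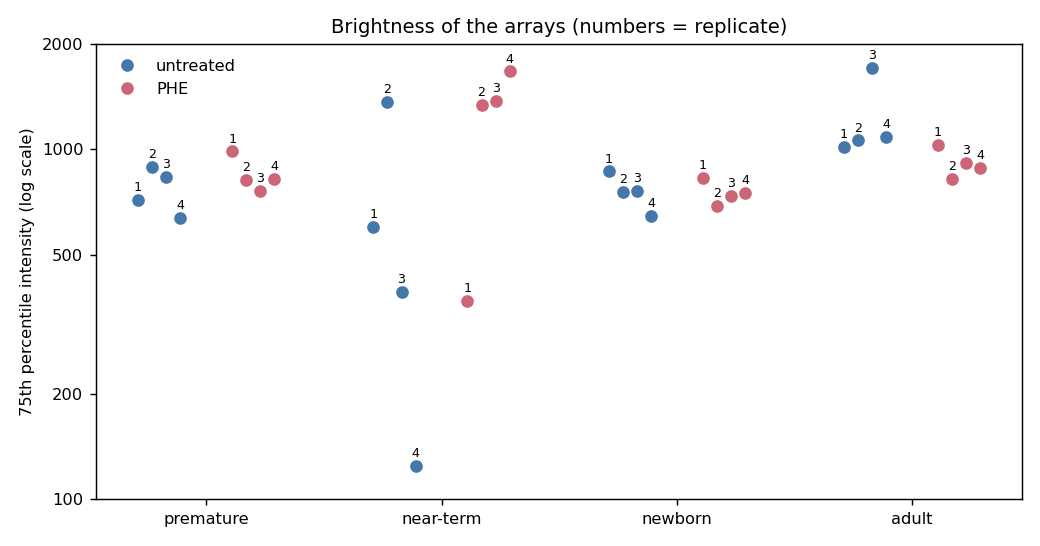
The 75th percentile intensity of each of the 32 arrays (vertical axis, log scale) by age (horizontal axis), with untreated arrays in blue, PHE arrays in red and the replicate number above each point. Near-term untreated replicate 4, at 124.3, was the dimmest array.

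The label of the tissue was set against marker genes. CNN1, the smooth muscle calponin, was the 1 of 9 smooth muscle markers with a name on the array, and each of the 32 arrays read it well above background. Of 8 endothelial markers 2 had a name, TIE1 and ENG, and these were well above background on 17 and 31 arrays.

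DDR1 encodes a receptor tyrosine kinase that is activated by collagen. In the premature fetus its signal was -1.54, -1.61, -1.78 and -1.82 in untreated replicates 1 to 4 and -2.36, -2.59, -2.34 and -2.25 with PHE. In the near-term fetus it was -0.97, -1.39, -1.61 and -1.15 untreated and -0.08, -0.19, -0.33 and -0.38 with PHE. All 4 PHE arrays of the premature fetus lay below all untreated ones, and all 4 PHE arrays of the near-term fetus lay above all untreated ones, so the groups overlapped at neither age. The PHE difference was -0.70 ± 0.10 (log2, SE, n = 4 per group) in the premature fetus. It was 1.03 ± 0.15 in the near-term fetus with all arrays, 0.98 without near-term PHE replicate 1 and 1.02 without that array and near-term untreated replicate 4, and 0.43 with normexp background correction.

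In the newborn lamb DDR1 read -1.87, -2.13, -2.02 and -1.31 untreated and -2.84, -2.84, -2.71 and -3.29 with PHE. In the adult it read -1.10, -0.56, -0.24 and -0.43 untreated and -1.60, -0.96, -1.80 and -1.62 with PHE. The newborn groups did not overlap, and in the adult PHE replicate 2 reached above untreated replicate 1. DDR1 fell with PHE in the newborn, by limma, with a log2 difference of -1.09 ± 0.20 (2.12-fold lower, adjusted p = 0.000393), and 4 of 4 PHE arrays were below all untreated arrays. It also fell in the adult, with a log2 difference of -0.91 ± 0.20 (1.88-fold lower, adjusted p = 0.00516 by limma), and 3 of 4 PHE arrays were below all untreated arrays. The newborn effect minus the adult effect was -0.17 ± 0.28 (adjusted p = 1 by limma), so no difference between the ages was detected with 4 arrays a group. That value was -0.43 with slide as a block and 0.36 with normexp background correction.

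The adult call of DDR1 did not hold within a slide. Adult untreated replicates 1 and 2 shared slide 3 with all adult PHE arrays, and untreated replicates 3 and 4 were on slide 2, where DDR1 read 0.49 higher. Within slide 3 the PHE difference was -0.66, and with slide as a block it was -0.66 with an adjusted p of 0.0991 by limma. With normexp background correction the newborn difference was -0.42 (adjusted p = 0.296 by limma) and was not called.

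From highest to lowest, the mean DDR1 level was -0.25 ± 0.13 (SD, n = 4) with PHE near term, -0.58 ± 0.37 in the untreated adult, -1.28 ± 0.28 untreated near term, -1.50 ± 0.37 with PHE in the adult, -1.69 ± 0.13 in the untreated premature fetus, -1.83 ± 0.36 in the untreated newborn, -2.39 ± 0.14 with PHE in the premature fetus and -2.92 ± 0.25 with PHE in the newborn. Neighbours in that order overlapped, except that the premature PHE arrays lay apart from the untreated newborn arrays above them and the newborn PHE arrays below them. Untreated, DDR1 was higher in the adult than in the newborn by 1.25 ± 0.20 (2.38-fold, adjusted p = 8.15e-06 by limma), with 4 of 4 adult arrays above all newborn arrays. In a whole artery, fewer cells of a type and less RNA per cell cannot be told apart.

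**Figure D2:**
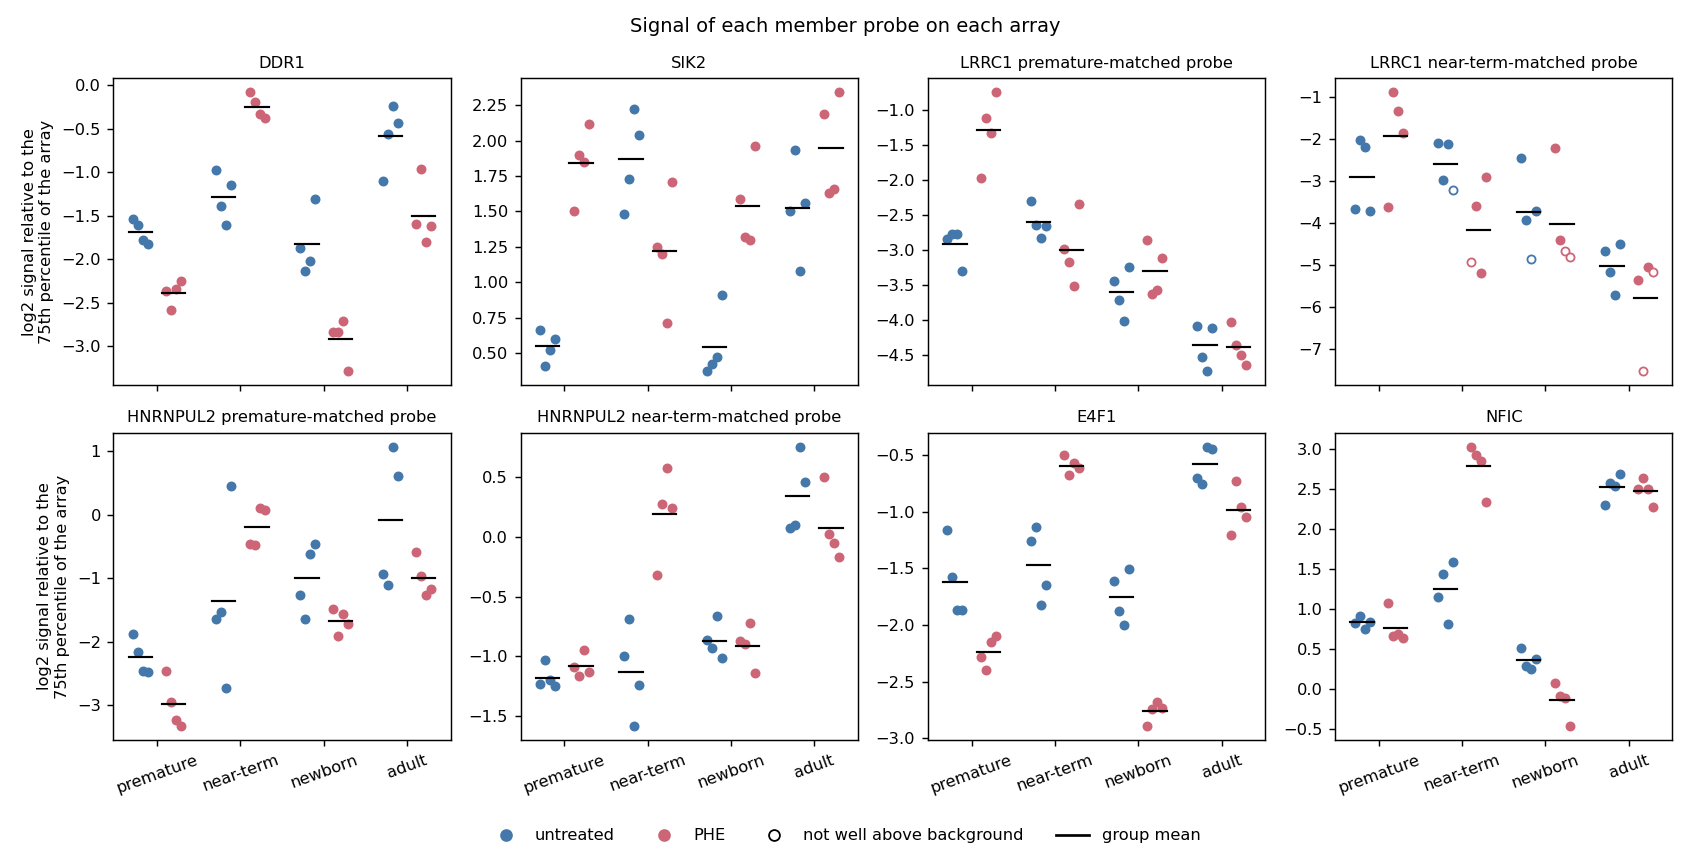
Signal of the 8 probes (a panel each; vertical axis, log2 relative to the 75th percentile of the array) on every array of the 4 ages (horizontal axis), untreated in blue and PHE in red, with a black line at each group mean and open circles where the probe was not well above background. For DDR1 and E4F1 the PHE arrays lay below the untreated ones in the premature fetus and the newborn and above them in the near-term fetus.

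The list for DDR1 held collagens, collagen receptors, their signalling partners and matrix proteases. Besides DDR1, 10 of its genes had a name on the array, and 8 could be tested in the newborn and 6 in the adult. ITGA2, the collagen-binding integrin α2 chain, was the 1 gene called higher by limma in the newborn. It was well above background on 4 of 4 PHE arrays and 1 of 4 untreated arrays there and entered the test only through the group where it read high, so the call supports nothing and no size is given. None of the list fell by limma at either age. Among all genes tested 5.62% were higher and 5.67% lower in the newborn, and 2.81% and 1.00% in the adult. The fibrillar collagens COL1A1 (1.30 ± 0.61, adjusted p = 0.19 by limma, 3 of 4 PHE arrays above all untreated) and COL1A2 (1.31 ± 0.66, adjusted p = 0.222 by limma, 2 of 4 above) did not pass in the newborn.

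SIK2 encodes salt-inducible kinase 2, which phosphorylates the CRTC coactivators of CREB and class IIa histone deacetylases and is itself inhibited by protein kinase A. In the premature fetus its signal was 0.66, 0.41, 0.52 and 0.60 untreated and 1.5, 1.90, 1.85 and 2.12 with PHE. Near term it was 1.48, 1.73, 2.22 and 2.04 untreated and 1.25, 1.20, 0.71 and 1.71 with PHE. Every PHE array of the premature fetus was above every untreated one. Near term 3 of 4 PHE arrays were below all untreated ones, and PHE replicate 4 overlapped them. The PHE difference was 1.29 ± 0.14 in the premature fetus and -0.65 ± 0.26 in the near-term fetus. Leaving out near-term PHE replicate 1 gave -0.66, and leaving out near-term untreated replicate 4 as well gave -0.60. With normexp background correction the near-term difference was -0.06.

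On the newborn arrays SIK2 read 0.37, 0.42, 0.47 and 0.91 untreated and 1.59, 1.32, 1.30 and 1.96 with PHE. On the adult arrays it read 1.5, 1.93, 1.08 and 1.56 untreated and 2.19, 1.63, 1.66 and 2.34 with PHE. The newborn groups lay apart, and the adult groups overlapped, with 2 of 4 PHE arrays above all untreated ones. SIK2 rose with PHE in the newborn by 1.00 ± 0.22 (2.00-fold, adjusted p = 0.00254 by limma), and 4 of 4 PHE arrays were above all untreated arrays. In the adult the difference was 0.44 ± 0.22 and did not pass (adjusted p = 0.389 by limma), and within slide 3 it was 0.23. The newborn effect minus the adult effect was 0.57 ± 0.32 (adjusted p = 0.943 by limma), so the ages were not shown to differ.

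The order of SIK2 levels was 1.95 ± 0.37 (SD) with PHE in the adult, 1.87 ± 0.33 untreated near term, 1.84 ± 0.26 with PHE in the premature fetus, 1.54 ± 0.31 with PHE in the newborn, 1.52 ± 0.35 in the untreated adult, 1.22 ± 0.41 with PHE near term, 0.55 ± 0.11 in the untreated premature fetus and 0.54 ± 0.25 in the untreated newborn. The untreated premature arrays did not overlap the near-term PHE arrays above them, and all other neighbours overlapped. Untreated, SIK2 was higher in the adult than in the newborn by 0.98 ± 0.22 (adjusted p = 0.000543 by limma), with 4 of 4 adult arrays above all newborn arrays.

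Around SIK2, the list of SIK kinases, CRTC coactivators and CREB factors had 8 other genes with a name on the array, of which 7 could be tested at either age. Of these, 4 rose and none fell in the newborn, and 3 rose and none fell in the adult, by limma. CREM, a CREB-family factor with inducible repressor forms, rose by 6.17 ± 0.55 in the newborn (adjusted p = 1.07e-08 by limma) and 6.19 ± 0.54 in the adult (adjusted p = 2.81e-09). NR4A1, a nuclear receptor and CREB target, rose by 3.51 ± 0.54 (adjusted p = 4.78e-05 by limma) and 6.75 ± 0.54 (adjusted p = 4.24e-10). SIK1, the inducible relative of SIK2, rose by 3.21 ± 0.36 (adjusted p = 5.54e-07 by limma) and 4.27 ± 0.36 (adjusted p = 1.11e-09). For CREM, NR4A1 and SIK1, 4 of 4 PHE arrays were above all untreated arrays at both ages. NR4A2 rose by 0.70 ± 0.15 in the newborn (adjusted p = 0.00152 by limma, 4 of 4 PHE arrays above all untreated) and read 0.23 ± 0.15 in the adult (adjusted p = 0.565 by limma, 1 of 4 above). None of these 4 genes passed for a difference between the ages, NR4A1 coming nearest with -3.23 ± 0.77 (adjusted p = 0.101 by limma). CREB1 and PRKACA did not pass at either age. These counts stand beside 5.62% of all genes tested called higher in the newborn and 2.81% in the adult, and beside 37.2% and 15.7% altered among genes named by the match alone. Most names of this list came from that match, which holds only genes listed as altered at some age, so its share of calls is not a measure of the pathway.

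LRRC1, also known as LANO, encodes a scaffold protein with leucine-rich repeats that belongs to the LAP family, like Scribble, but lacks the PDZ domains of Scribble. Its 2 names came from different probes: the group means listed for the premature fetus matched one probe, and those listed for the near-term fetus matched another. The gene was represented by the premature-matched probe, which was the brighter and read well above background on each of the 32 arrays. The near-term-matched probe was well above background on 25 of 32.

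On the premature-matched probe of LRRC1, the premature fetus read -2.85, -2.77, -2.77 and -3.30 untreated and -1.98, -1.11, -1.33 and -0.75 with PHE. The near-term fetus read -2.30, -2.65, -2.84 and -2.66 untreated and -2.99, -3.18, -3.52 and -2.35 with PHE. PHE arrays were all above untreated ones in the premature fetus, and 3 of 4 were below all untreated ones near term, with PHE replicate 4 overlapping. The PHE difference of this probe was 1.63 ± 0.29 in the premature fetus and -0.40 ± 0.27 near term, and it was -0.40 without near-term PHE replicate 1 and -0.42 without that array and near-term untreated replicate 4. With 1 array left out at a time the near-term value lay between -0.62 and -0.23. With normexp background correction the difference was 0.74 in the premature fetus and -1.30 near term, so which age had the larger difference depended on the background correction.

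The near-term-matched probe of LRRC1 scattered more. It read -3.66, -2.01, -2.18 and -3.71 untreated and -3.61, -0.89, -1.34 and -1.85 with PHE in the premature fetus. Near term it read -2.09, -2.97, -2.12 and -3.22 untreated and -4.93, -3.59, -5.18 and -2.89 with PHE. In the premature fetus 3 of 4 PHE arrays were above all untreated ones and near term 3 of 4 were below them, while the remaining array overlapped at each age. Between same-numbered arrays of the premature fetus, which deviate together, PHE minus untreated was 0.05, 1.12, 0.84 and 1.86, all of 1 sign. The PHE difference of this probe was 0.97 ± 0.75 in the premature fetus and -1.55 ± 0.62 near term, and the latter was -1.28 without near-term PHE replicate 1 and -1.49 without that array and near-term untreated replicate 4. With slide as a block the near-term value was -0.93. Near term this probe was well above background on 3 of 4 arrays of each group, the exceptions being the 2 arrays left out. With 1 array left out its premature value lay between 0.62 and 1.53, and with normexp background correction it was 0.15. Both probes of LRRC1 had a positive premature and a negative near-term difference, and on this probe the premature one was small after normexp.

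For the newborn lamb the premature-matched probe of LRRC1 read -3.45, -3.72, -4.02 and -3.25 untreated and -2.86, -3.63, -3.58 and -3.12 with PHE. For the adult it read -4.09, -4.53, -4.74 and -4.12 untreated and -4.04, -4.36, -4.50 and -4.65 with PHE. The groups overlapped at both ages. Neither effect passed: the difference was 0.31 ± 0.25 in the newborn (adjusted p = 0.53 by limma, 2 of 4 PHE arrays above all untreated) and -0.02 ± 0.25 in the adult (adjusted p = 0.993 by limma, 1 of 4 above). Between same-numbered newborn arrays, which also deviate together, PHE minus untreated was 0.59, 0.08, 0.44 and 0.12, all of 1 sign, and with the replicate block the newborn value did not pass (adjusted p = 0.442 by limma). Newborn minus adult was 0.33 ± 0.36 (adjusted p = 1 by limma).

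The near-term-matched probe of LRRC1 read -2.45, -3.92, -4.86 and -3.72 untreated and -2.22, -4.39, -4.67 and -4.81 with PHE in the newborn. In the adult it read -4.66, -5.16, -5.71 and -4.50 untreated and -5.36, -7.52, -5.05 and -5.16 with PHE. It overlapped between groups at both ages and was well above background on 2 of 4 PHE arrays at each. It was not tested in the newborn. In the adult it entered the test only through the untreated group, on whose 4 arrays it was well above background. No size or test of its PHE difference is therefore given here at either age, and no direction is drawn from its newborn value listed under the processing settings.

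Mean levels of the premature-matched probe of LRRC1 ran from -1.29 ± 0.52 (SD) with PHE in the premature fetus, through -2.61 ± 0.22 untreated near term, -2.92 ± 0.25 in the untreated premature fetus, -3.01 ± 0.49 with PHE near term, -3.30 ± 0.37 with PHE in the newborn and -3.61 ± 0.34 in the untreated newborn, to -4.37 ± 0.32 in the untreated adult and -4.39 ± 0.26 with PHE in the adult. The premature PHE group at the top and the adult groups at the bottom lay apart from their neighbours, and the groups between overlapped in turn. On the near-term-matched probe the means ran from -1.92 ± 1.19 with PHE in the premature fetus to -5.77 ± 1.17 with PHE in the adult, and every neighbour overlapped. Untreated, LRRC1 was lower in the adult than in the newborn by the premature-matched probe, with a log2 difference of -0.76 ± 0.25 (1.70-fold lower, adjusted p = 0.0128 by limma) and 4 of 4 adult arrays below all newborn arrays. With quantile normalization that difference was 0.13, and with scaling to the array median it was -0.17 (adjusted p = 0.665 by limma), so its direction depended on the scaling. The other probe gave -1.27 ± 0.67 and did not pass (adjusted p = 0.107 by limma, 2 of 4 adult arrays below all newborn arrays). It was well above background on 3 of 4 newborn arrays and entered that test through the adult group alone, so nothing is drawn from it. Of the other polarity genes on the list, MARK2 alone had a name on the array, and its differences of -0.22 ± 0.29 in the newborn and 0.14 ± 0.29 in the adult did not pass.

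HNRNPUL2 encodes a nuclear protein of the hnRNP U family, which binds RNA. It too was matched to a different probe at each fetal age. Which probe of LRRC1 and of HNRNPUL2 measures the gene was not checked, as no probe sequence was used here, so values under these names are those of the probe stated. The near-term-matched probe was the brighter and represented the gene, and each of the 32 arrays read both probes well above background.

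The premature-matched probe of HNRNPUL2 read -1.88, -2.16, -2.46 and -2.48 untreated and -2.46, -2.95, -3.23 and -3.33 with PHE in the premature fetus. Near term it read -1.64, -1.53, -2.73 and 0.45 untreated and -0.46, -0.48, 0.11 and 0.07 with PHE. In the premature fetus 3 of 4 PHE arrays were below all untreated ones, and each was below the untreated array of its number, with differences of -0.58, -0.78, -0.77 and -0.85 (mean -0.75 ± 0.06, SE within pairs). Near term untreated replicate 4, the dimmest array, stood above every PHE array, and the other untreated arrays stood below every PHE array. Between groups the difference of this probe was -0.75 ± 0.24 in the premature fetus and 1.17 ± 0.68 near term. Without near-term PHE replicate 1 the near-term value was 1.27, without near-term untreated replicate 4 as well it was 1.87, and with slide as a block it was -0.64. With 1 array left out at a time its lowest value was 0.72, and with normexp background correction it was 0.23. The near-term sign of this probe thus depended on whether replicate 4 was the array compared, and slide and that dim array cannot be told apart.

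By contrast, the near-term-matched probe of HNRNPUL2 read -1.23, -1.03, -1.20 and -1.25 untreated and -1.09, -1.16, -0.95 and -1.13 with PHE in the premature fetus. It read -1.0, -0.69, -1.58 and -1.24 untreated and -0.32, 0.27, 0.57 and 0.24 with PHE near term. The premature groups overlapped, and the near-term PHE arrays all lay above the untreated ones. Its PHE difference was 0.09 ± 0.07 in the premature fetus and 1.31 ± 0.26 near term, 1.48 without near-term PHE replicate 1 and 1.45 without both arrays. With all arrays the fetal differences of this probe had the same sign, with a gap of 1.22 ± 0.27. The premature value was near 0 and its sign was not fixed: it was -0.03 with median scaling and -0.05 with normexp background correction, which also brought the near-term value to 0.72. The opposite fetal signs listed for HNRNPUL2 were thus those of different probes.

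In the newborn lamb HNRNPUL2 read -0.86, -0.93, -0.66 and -1.01 untreated and -0.87, -0.90, -0.72 and -1.14 with PHE on the near-term-matched probe. In the adult that probe read 0.07, 0.10, 0.75 and 0.46 untreated and 0.50, 0.02, -0.05 and -0.17 with PHE. The groups overlapped at both ages. The difference of HNRNPUL2 was -0.04 ± 0.19 in the newborn (adjusted p = 0.94 by limma, 1 of 4 PHE arrays below all untreated) and -0.27 ± 0.19 in the adult (adjusted p = 0.624 by limma, 3 of 4 below), and newborn minus adult was 0.23 ± 0.27 (adjusted p = 1 by limma). The adult untreated arrays on slide 2 read 0.52 higher on this probe than those on slide 3, and the adult difference was -0.09 with slide as a block and -0.01 within slide 3.

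The premature-matched probe of HNRNPUL2 read -1.27, -1.64, -0.62 and -0.46 untreated and -1.49, -1.91, -1.57 and -1.72 with PHE in the newborn. In the adult it read -0.93, -1.11, 1.07 and 0.61 untreated and -0.58, -0.96, -1.27 and -1.17 with PHE. It overlapped at both ages, and the adult untreated arrays separated by slide, replicates 3 and 4 on slide 2 reading 1.86 higher than replicates 1 and 2 on slide 3. Between same-numbered newborn arrays PHE minus untreated was -0.23, -0.27, -0.95 and -1.27, all of 1 sign (mean -0.68 ± 0.26, SE within pairs). The limma SE of this probe also takes in groups of wide spread, such as near-term untreated (SD 1.32) and adult untreated (SD 1.09). The difference was -0.68 ± 0.46 in the newborn (adjusted p = 0.414 by limma, 2 of 4 PHE arrays below all untreated) and -0.91 ± 0.46 in the adult (adjusted p = 0.383 by limma, 2 of 4 below). Within slide 3 the adult difference of this probe was 0.02.

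Levels of HNRNPUL2 on the near-term-matched probe were 0.34 ± 0.32 (SD) in the untreated adult, 0.19 ± 0.37 with PHE near term, 0.07 ± 0.29 with PHE in the adult, -0.87 ± 0.15 in the untreated newborn, -0.91 ± 0.18 with PHE in the newborn, -1.08 ± 0.10 with PHE in the premature fetus, -1.13 ± 0.37 untreated near term and -1.18 ± 0.10 in the untreated premature fetus. The 3 highest groups overlapped each other in turn and lay apart from the newborn, where the overlapping lower groups began. On the premature-matched probe the means ran from -0.09 ± 1.09 in the untreated adult to -2.99 ± 0.39 with PHE in the premature fetus, and the 1 gap between neighbours was that between the near-term PHE group (-0.19 ± 0.33) and the adult PHE group (-0.99 ± 0.30). Untreated, HNRNPUL2 was higher in the adult than in the newborn by 1.21 ± 0.19 (2.31-fold, adjusted p = 6.89e-06 by limma), with 4 of 4 adult arrays above all newborn arrays. The other probe gave 0.91 ± 0.46 and did not pass (adjusted p = 0.0952 by limma, 2 of 4 arrays above).

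Of the other hnRNP genes on the list 6 had a name on the array, 6 were tested in the newborn and 5 in the adult, and all of these names came from the match of genes listed as altered. HNRNPF, a splicing regulator that binds G-rich RNA, was the 1 that rose at each age, by 1.27 ± 0.22 in the newborn (adjusted p = 0.000215 by limma) and 1.37 ± 0.22 in the adult (adjusted p = 0.000147 by limma), with 4 of 4 PHE arrays above all untreated arrays at both ages. None fell by limma at either age. Beside these counts, 37.2% of the genes named by the match alone were altered in the newborn and 15.7% in the adult. Among all genes tested 5.62% and 2.81% were called higher, so nothing is read from the counts. HNRNPUL1, the nearest relative of HNRNPUL2 on the list, read 0.47 ± 0.40 in the newborn and -0.05 ± 0.40 in the adult and did not pass.

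**Figure D3:**
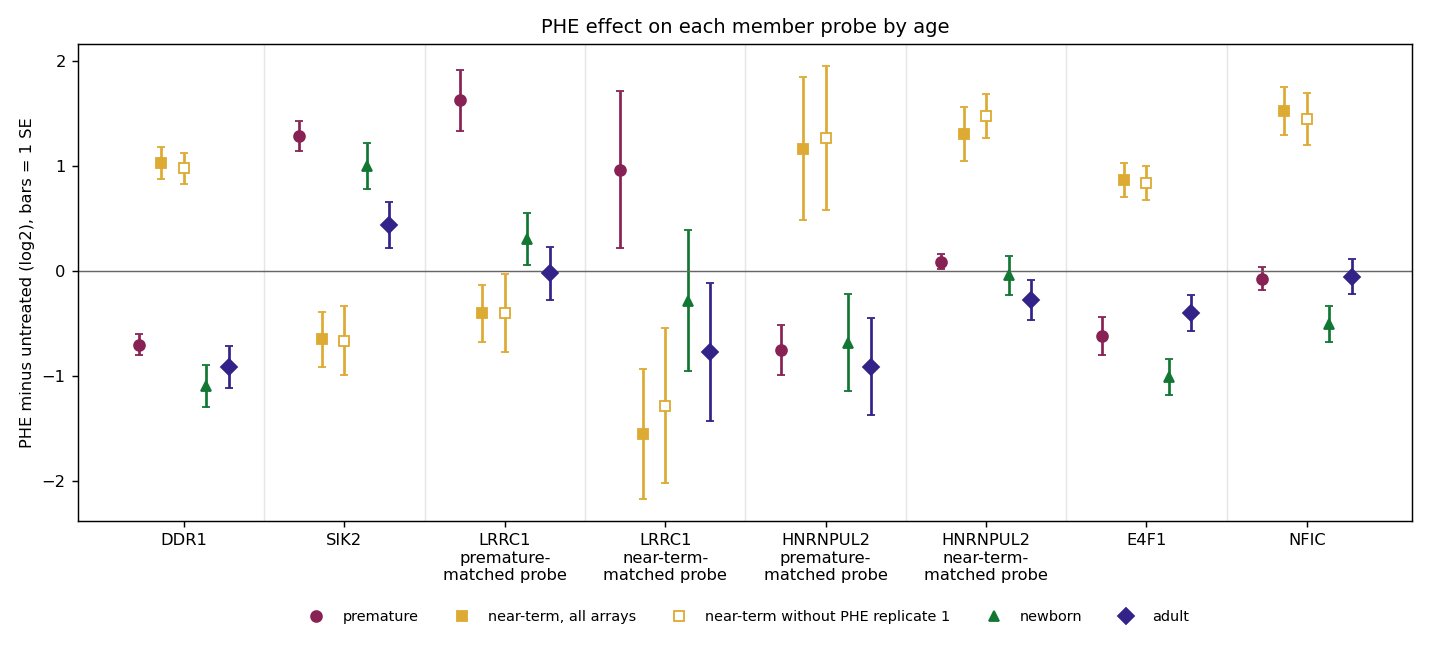
PHE minus untreated (vertical axis, log2, bars of 1 SE) for each of the 8 probes (horizontal axis) for the premature age, the near-term age with all arrays and without PHE replicate 1 (open squares), the newborn and the adult. Fetal bars come from the groups compared, and newborn and adult bars from limma over all groups. Both probes of LRRC1 and of HNRNPUL2 are drawn. No size is read from the newborn and adult points of the near-term-matched probe of LRRC1. On the near-term-matched probe of HNRNPUL2 the premature difference was 0.09 and the near-term one 1.31.

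E4F1 encodes a zinc finger transcription factor with ubiquitin ligase activity that regulates pyruvate dehydrogenase genes. In the premature fetus it read -1.16, -1.58, -1.87 and -1.87 untreated and -2.28, -2.40, -2.15 and -2.10 with PHE. In the near-term fetus it read -1.26, -1.14, -1.82 and -1.65 untreated and -0.50, -0.68, -0.57 and -0.62 with PHE. The groups overlapped at neither age, with PHE arrays below untreated ones in the premature fetus and above them near term. The PHE difference of E4F1 was -0.62 ± 0.18 in the premature fetus and 0.87 ± 0.16 near term. It was 0.84 without near-term PHE replicate 1 and 0.78 without near-term untreated replicate 4 as well, and 0.12 near term with normexp background correction.

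Newborn E4F1 signals were -1.61, -1.88, -2.0 and -1.51 untreated and -2.89, -2.74, -2.68 and -2.73 with PHE. Adult signals were -0.70, -0.76, -0.43 and -0.45 untreated and -1.21, -0.73, -0.96 and -1.05 with PHE. The newborn groups lay apart, and in the adult PHE replicate 2 overlapped the untreated arrays. E4F1 fell with PHE in the newborn, with a log2 difference of -1.01 ± 0.17 (2.02-fold lower, adjusted p = 9.97e-05 by limma), and 4 of 4 PHE arrays were below all untreated arrays. In the adult it was -0.40 ± 0.17 and did not pass (adjusted p = 0.253 by limma, 3 of 4 PHE arrays below). Newborn minus adult was -0.61 ± 0.24 (unadjusted p = 0.0151 and adjusted p = 0.609 by limma), so a difference between the ages was not shown. With normexp background correction newborn minus adult was -0.14, and the newborn difference was -0.46 (adjusted p = 0.277 by limma) and was not called.

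The order of E4F1 levels was -0.58 ± 0.17 (SD) in the untreated adult, -0.60 ± 0.08 with PHE near term, -0.99 ± 0.20 with PHE in the adult, -1.47 ± 0.32 untreated near term, -1.62 ± 0.34 in the untreated premature fetus, -1.75 ± 0.23 in the untreated newborn, -2.24 ± 0.14 with PHE in the premature fetus and -2.76 ± 0.09 with PHE in the newborn. The near-term PHE arrays did not overlap the adult PHE arrays next in order, and the premature PHE and newborn PHE groups each lay apart from the group above. Untreated, E4F1 was higher in the adult than in the newborn by 1.16 ± 0.17 (adjusted p = 1.49e-06 by limma), with 4 of 4 adult arrays above all newborn arrays.

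The list for E4F1 held its partners and genes of the cell cycle, cell death and pyruvate dehydrogenase. Of its other genes 3 had a name, 2 of them by the match alone, and were tested at both ages, and 1 rose and none fell at each, by limma. Of all genes tested 5.62% were higher in the newborn and 2.81% in the adult. Among genes named by the match alone 37.2% and 15.7% were altered, so the count is no result about the list. CDKN1A, which encodes an inhibitor of cyclin-dependent kinases, rose by 5.08 ± 0.64 in the newborn (adjusted p = 3.56e-06 by limma) and 4.79 ± 0.64 in the adult (adjusted p = 6.39e-06 by limma), with 4 of 4 PHE arrays above all untreated arrays at both ages. BAX, a gene of cell death, read -0.89 ± 0.33 in the newborn and -1.01 ± 0.33 in the adult, without passing at either age.

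NFIC encodes a transcription factor of the nuclear factor I family, and no other gene of that family had a name on the array. It was listed for the near-term fetus alone. Premature values of NFIC were 0.82, 0.91, 0.75 and 0.84 untreated and 1.07, 0.66, 0.68 and 0.64 with PHE. Near-term values were 1.15, 1.43, 0.81 and 1.59 untreated and 3.02, 2.92, 2.84 and 2.33 with PHE. In the premature fetus 3 of 4 PHE arrays were below all untreated ones and PHE replicate 1 was above them all, whereas near term every PHE array was above every untreated one. The PHE difference of NFIC was -0.07 ± 0.11 in the premature fetus and 1.53 ± 0.23 near term, 1.45 without near-term PHE replicate 1 and 1.56 without both arrays.

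NFIC in the newborn lamb read 0.51, 0.29, 0.25 and 0.38 untreated and 0.08, -0.09, -0.11 and -0.46 with PHE. In the adult it read 2.30, 2.57, 2.53 and 2.68 untreated and 2.50, 2.63, 2.49 and 2.27 with PHE. The newborn groups lay apart, PHE below untreated, and the adult groups overlapped. The newborn difference of NFIC was -0.50 ± 0.17 (1.41-fold lower, adjusted p = 0.0462 by limma, 4 of 4 PHE arrays below all untreated), which was under the 1.5-fold that a call required. The adjusted p by limma was 0.088 with the replicate block, 0.355 with median scaling and 0.344 with normexp background correction. The adult difference was -0.05 ± 0.17 (adjusted p = 0.966 by limma, 1 of 4 below), and newborn minus adult was -0.46 ± 0.24 (adjusted p = 0.91 by limma).

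NFIC levels were 2.78 ± 0.31 (SD) with PHE near term, 2.52 ± 0.16 in the untreated adult, 2.47 ± 0.15 with PHE in the adult, 1.25 ± 0.34 untreated near term, 0.83 ± 0.06 in the untreated premature fetus, 0.76 ± 0.21 in the premature fetus with PHE, 0.36 ± 0.11 in the untreated newborn and -0.14 ± 0.23 with PHE in the newborn. The 3 highest groups overlapped in turn, as did the 3 that followed, and each newborn group lay apart from the group above it. Untreated, NFIC was higher in the adult than in the newborn by 2.16 ± 0.17 (4.47-fold, adjusted p = 4.16e-11 by limma), with 4 of 4 adult arrays above all newborn arrays.

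Side by side, the fetal PHE differences of the 8 probes had opposite signs for 7. The genes were chosen on these fetal values, so this count carries no test. NFIC counts among the 7 on a premature value of -0.07 ± 0.11, and with normexp background correction that value was 0.06. The 1 probe with the same sign was the near-term-matched probe of HNRNPUL2. Among 629 genes matched to 1 probe at each fetal age, 75 (11.9%) were matched to different probes. Of 22 genes whose listed means ran in opposite directions at the fetal ages, DDR1, SIK2, LRRC1, HNRNPUL2 and E4F1 among them, 7 were matched to the same probe at both ages and 15 to different ones.

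Marker sums of other cell types also differed between the near-term groups. The summed level of the red blood cell markers (2 of 6 named on the array, HBA1 the brightest) was 3.98 ± 0.39 (log2, SD, n = 4) untreated and 1.71 ± 1.07 with PHE near term, and 5.32 ± 0.37 and 3.55 ± 0.08 in the premature fetus. That of the endothelial markers was -2.76 ± 0.67 and -0.88 ± 0.40 near term, and -2.84 ± 0.14 and -2.59 ± 0.23 in the premature fetus. That of the leukocyte markers (5 of 7 named, CD14 the brightest) was 1.68 ± 0.52 and 0.88 ± 0.73 near term, and 1.05 ± 0.09 and 1.97 ± 0.40 in the premature fetus. The other marker sums, like that of leukocytes, overlapped between the near-term groups: -0.49 ± 1.35 and -1.76 ± 0.99 for brain, 5.03 ± 0.92 and 5.91 ± 0.79 for fibroblasts, 7.9 ± 0.69 and 7.22 ± 0.71 for smooth muscle, and -3.60 ± 1.01 and -5.38 ± 1.97 for fat, whose 1 marker LEP was well above background on 8 of 32 arrays. The brain sum of the premature fetus was -1.0 ± 0.21 untreated and -1.64 ± 0.19 with PHE, without overlap. Its fat sum was -5.58 ± 0.17 and -6.72 ± 0.26, also without overlap. The part of these cell types in the fetal values of DDR1, SIK2, LRRC1, HNRNPUL2, E4F1 and NFIC was not tested.

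Across the newborn arrays, limma called 3 of the 6 genes altered with PHE, against 11.3% of the 9452 genes tested. SIK2 was higher, against 5.62% of all genes tested, and DDR1 and E4F1 were lower, against 5.67%. All 6 names came from the match of group means, which can name only genes listed as altered at some age, and among the 1545 genes named in that way alone 37.2% were altered in the newborn, which is the share to set beside the 3 of 6. The median difference was -0.27 over the 6 genes and -0.08 over all tested. CNN1 did not pass in the newborn (-0.21 ± 0.31) and the leukocyte marker CD68 rose by 1.45 ± 0.34 (adjusted p = 0.00449 by limma, 4 of 4 PHE arrays above all untreated). The other markers tested did not pass. The summed red blood cell markers of the newborn were 4.86 ± 0.31 (SD) untreated and 3.93 ± 0.18 with PHE, without overlap, HBA1 differing by -1.0 ± 0.38 (adjusted p = 0.0883 by limma, 4 of 4 PHE arrays below all untreated). The summed fibroblast markers were 4.93 ± 0.58 and 5.74 ± 0.12. The part of these cell types in the values of the 6 genes was not tested.

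Across the adult arrays, limma called 1 of the 6 genes, DDR1, and that call was lost under the settings given above for DDR1. The share called was 3.82% of the 9277 genes tested, 2.81% higher and 1.00% lower, and 15.7% of the 1486 genes named by the match alone. The median difference was -0.16 over the 6 genes and -0.05 over all tested. CD68 rose by 1.24 ± 0.34 in the adult as well (adjusted p = 0.0339 by limma, 3 of 4 above). For the newborn effect minus the adult effect, limma called 0 of the 6 genes, and 0.120% of all 10041 genes tested, with a median of 0.03 over the 6 genes and -0.04 over all. At an unadjusted p, limma called 1 of the 6 (E4F1), against 5.04% of all genes tested. The effects of SIK2 and E4F1, called in the newborn and not in the adult, were therefore not shown to differ between these ages.

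Untreated, 5 of the 6 genes were higher in the adult than in the newborn and 1 (LRRC1) was lower by limma, against 24.6% higher and 28.0% lower among the 9765 genes tested. The share among genes named by the match alone was not computed for this comparison, so the count is not read as a result about the 6 genes. The fetal ages that chose the genes were split between the same scans, near term with the adult and premature with the newborn. The median difference was 1.19 over the 6 genes and -0.04 over all tested. Marker sums of smooth muscle, fibroblasts, red blood cells and leukocytes differed between these groups without overlap. Smooth muscle read 6.93 ± 0.33 (SD) in the newborn and 8.62 ± 0.6 in the adult. Fibroblasts read 4.93 ± 0.58 and 3.32 ± 0.65, red blood cells 4.86 ± 0.31 and 2.41 ± 0.77, and leukocytes 1.28 ± 1.05 and -0.84 ± 0.63. Endothelial, brain and fat sums overlapped. The part of these cell types in the values of the 6 genes was not tested. The calls of DDR1, SIK2, HNRNPUL2, E4F1 and NFIC held under each scaling tried and with each array left out, though with 1 probe of HNRNPUL2 alone, and age and scan cannot be told apart here. Scaling to the array median shifted the median of all genes from -0.04 to 0.55 and the share of higher calls from 46.8% to 71.4%.

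**Figure D4:**
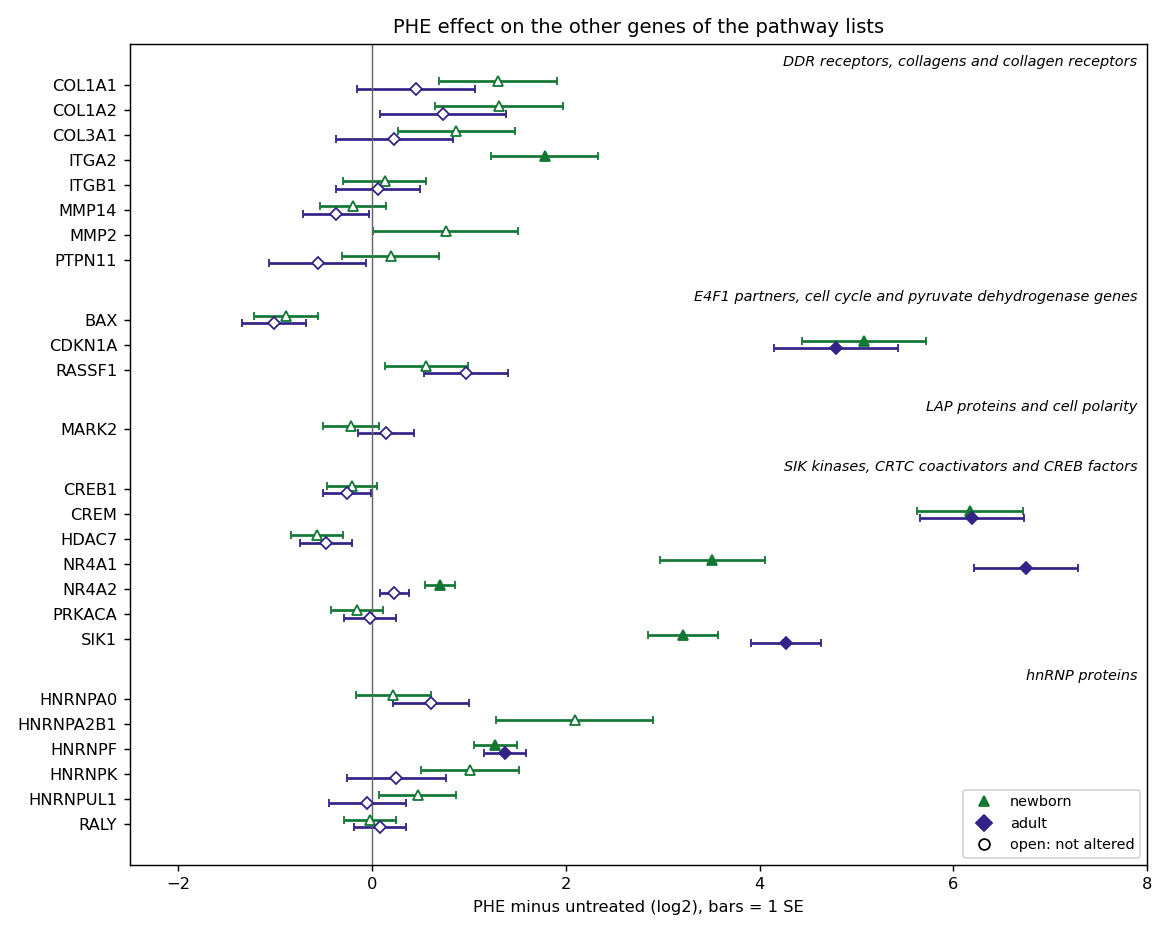
PHE minus untreated (horizontal axis, log2, bars of 1 SE) for the tested list genes other than the 6 themselves, by list, in the newborn (triangles) and the adult (diamonds); filled symbols were altered by limma, and ITGA2 was well above background on 1 of 4 newborn untreated arrays. CREM, NR4A1, SIK1 and CDKN1A had the largest differences drawn.

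The genes whose values ran most like those of each gene were sought among 1312 named genes over the 16 newborn and adult arrays, as a description. These arrays share 2 ages read on 2 scan days, which raises r for any gene that differs between them, so r within the 8 newborn and the 8 adult arrays is given after it. Those 8 arrays are 4 untreated and 4 PHE, so between genes that both differed with PHE at an age, r within that age largely restates those differences. For DDR1 the nearest were LRWD1 (Pearson r = 0.963; 0.934 in the newborn and 0.904 in the adult), CCDC71 (0.957; 0.905 and 0.892) and MRGPRF (0.951; 0.951 and 0.835). For SIK2 they were ODC1 (0.942; 0.929 and 0.873), GRAMD1A (0.937; 0.966 and 0.852) and CSRNP2 (0.934; 0.978 and 0.801). For LRRC1 they were NOX5 (0.917; 0.652 and 0.772), DGKH (0.868; 0.391 and 0.571) and ACSL3 (0.865; 0.402 and 0.592). HNRNPUL2 ran most like NFE2L1 (0.989; 0.859 and 0.945), TOMM40 (0.968; 0.531 and 0.893) and ATP6AP1 (0.963; 0.483 and 0.838). E4F1 ran most like MEN1 (0.987; 0.965 and 0.868), ZNF142 (0.975; 0.953 and 0.820) and MRGPRF (0.974; 0.927 and 0.873). NFIC ran most like AP2A2 (0.984; 0.578 and 0.576), PLEC (0.983; 0.341 and 0.462) and SPSB3 (0.981; 0.851 and 0.705). Within an age the genes nearest to LRRC1 and NFIC were mostly far less alike than over both ages, as were TOMM40 and ATP6AP1 to HNRNPUL2 in the newborn.

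Among the 6 genes themselves, and with the same limits, E4F1 and DDR1 ran together at both ages, with r = 0.943 over the 16 arrays, 0.938 within the newborn and 0.892 within the adult. SIK2 ran opposite to E4F1 within the newborn (r = -0.831) and within the adult (r = -0.842), while over the 16 arrays r was 0.184. HNRNPUL2 and NFIC had r = 0.925 over the 16 arrays but 0.320 within the newborn and 0.444 within the adult. The 2 probes of LRRC1 had r = 0.705 with each other and those of HNRNPUL2 0.715 over the 16 arrays.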

How the data were processed

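The deposited intensity values were Agilent Feature Extraction 9.5.3.1 processed signals, background-subtracted per the file headers, and the deposited value table equalled them. Control and outlier spots were left out, spots of a probe averaged, and log2 values taken relative to the 75th percentile of the array. Of 15008 probes, 520 were named by accession through RefSeq (ARS-UI_Ramb_v3.0 names), 739 by the file and 1803 by matching listed group means to the arrays (within 0.1%, premature ratios within 0.001%); 11946 had no symbol. The brightest probe represented a gene. Tested genes were well above background throughout at least 1 compared group; they were fitted with limma 3.58.1 (R 4.3.3; Python 3.11.15 for the rest) over all 8 groups, which was tried on simulated data; altered meant a 2-sided Benjamini-Hochberg adjusted p under 0.05 and 1.5-fold. Members and lists were chosen with earlier results of these data known. Named were the 6 genes, the 3 named genes of highest r, altered list genes (at most 4 a list) and, as examples, list and marker genes that did not pass. Same-numbered untreated and PHE arrays deviated together among premature arrays (r = 0.419 to 0.514) and newborn arrays (r = 0.482 to 0.561), where numbers thus pair arrays. They did not in the adult, nor near term apart from number 4. The number of arrays limits precision.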

Additional observations from a re-analysis of the deposited data

Results flagged for a closer look

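In 4 of 64 sets of 4 arrays (8 probes in 8 groups) one array stood far from the other 3, and chance does this in about 1 in 20 sets. LRRC1 on its premature-matched probe read -3.30 in premature untreated replicate 4, and the nearest array of that group read -2.85. On its near-term-matched probe LRRC1 read -2.22 in newborn PHE replicate 1, with the nearest at -4.39, and -7.52 in adult PHE replicate 2, where it was not well above background and the nearest read -5.36. NFIC read 1.07 in premature PHE replicate 1, with the nearest at 0.68.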

How the results depend on the processing

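Under settings other than a left-out array, 297 of 320 values of the 6 genes in the newborn, adult and untreated comparisons kept direction and call, 12 lost the call, 2 gained it and 9 turned direction; with 1 of 32 arrays left out, 758 of 768 did, 1 lost it and 9 turned. The adult arrays of slide 3 alone, the other probe of LRRC1 and HNRNPUL2, and differences within same-numbered pairs were added after seeing the data. Not run were slide as a block for the untreated ages, the methods' t-test for newborn minus adult, and, for fetal values, settings that leave them unchanged. Signal over background limits near-term untreated replicate 4.

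Genes altered in the newborn numbered 1067 (531 higher, 536 lower), 632 with median scaling (428 higher, 204 lower), 619 with normexp (379 higher, 240 lower), 1795 with the newborn arrays alone, 1808 with the methods' t-test and 1646 with limma at unadjusted p, and 717 to 1246 with 1 array left out. Of the 6 genes 3 were altered, 1 with normexp (SIK2) and 3 to 3 with 1 array left out. In the adult 354 were altered, 155 with the adult arrays alone, 597 with the methods' t-test unadjusted, 9 after Benjamini-Hochberg, 902 with limma unadjusted, and 226 (without adult PHE replicate 1) to 548 (without adult PHE replicate 2). DDR1, the 1 gene of the 6 called, was lost, leaving 0, with median scaling (-0.99, adjusted p = 0.0671), the adult arrays alone (adjusted p = 0.136), slide as a block, the methods' t-test after Benjamini-Hochberg and slide 3 alone (-0.66, adjusted p = 0.182), and 1 to 1 was altered with 1 array left out.

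For newborn minus adult 12 genes were altered, 19 with quantile normalization, 7 with normexp, 506 with limma unadjusted. With 1 array left out it was 6 to 26: 6 without newborn untreated replicate 1 or 4, newborn PHE replicate 3 or adult untreated replicate 2, 7 without newborn PHE replicate 4 or adult untreated replicate 1, and 26 without adult PHE replicate 4. The split was 25.0% higher, 44.4% with median scaling, 52.6% with quantile normalization and 0.0% with normexp. For untreated adult minus newborn 5135 were altered (4795 to 5259 with 1 array left out).

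Turned directions were as follows. HNRNPUL2 in the newborn (-0.04) was 0.07 with normexp and -0.11 to 0.04 with 1 array left out (0.03 without newborn untreated replicate 3). LRRC1 in the newborn (0.31) was -0.28 with its other probe, which was not tested there and is counted among the 9 turned values. That probe was well above background on 3 of 4 untreated and 2 of 4 PHE newborn arrays, so no direction is drawn from its value. LRRC1 in the adult (-0.02) was 0.27 with normexp, 0.04 with slide as a block and -0.14 to 0.07 with 1 array left out. NFIC in the adult (-0.05) was 0.01 with slide as a block, 0.04 on slide 3 alone, and -0.12 to 0.02 with 1 array left out. For newborn minus adult, DDR1 (-0.17) was 0.36 with normexp, -0.43 with slide as a block and -0.29 to 0.00 with 1 array left out, and HNRNPUL2 (0.23) was -0.03 on slide 3 alone. LRRC1 untreated (-0.76) was 0.13 with quantile normalization, and its call was also lost with normexp (-0.84), on slide 3 alone (-0.70) and without newborn untreated replicate 4 (-0.64, adjusted p = 0.0503). Fetal signs were opposite on 7 of 8 probes, 6 when slide was a block, 8 under median scaling and 7 with normexp, of which 6 were the same: NFIC (0.06 in the premature fetus) lost its opposite sign and the near-term-matched probe of HNRNPUL2 gained one. The cause was not tested.

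With the replicate block, 1230 genes were altered in the newborn, 474 in the adult, 17 for newborn minus adult and 5135 untreated. It changed no call of the 6 genes. Near-term numbers gave r of 0.137, 0.037, -0.080 and 0.550 and adult numbers -0.112, 0.023, -0.068 and -0.050. Near term, number 4 alone deviated together (highest r with another number -0.004). Numbers thus do not pair the arrays throughout near term, nor in the adult.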
